A study of Rattus norvegicus with 2 samples.

Results

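The 8 genes described here are *S100g*, *Fam25a*, *Apoc3*, *Mepe*, *Grp*, *Rxfp1*, *Shisa3* and *Inmt*, out of 32883 genes listed for both single-cell libraries. They were taken by name from the gene list of the files. They had been chosen by their UMI counts, which were higher in the SC300 library than in the Control library, with no fixed threshold. Their ratios between the libraries are therefore a description of what chose them. Values by cell type, neuron group and setting use the same UMIs and are descriptions too.

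The tissue was hypothalamus of female Sprague Dawley rats, collected on postnatal day (PND) 29 from an area that included the AVPV and the ARC. SC300 rats had been implanted on PND 0.5 with a silicone capsule that held estradiol benzoate (EB), 300 µg in all, and their sample is labelled P29_EB300. Control rats are labelled P29_intact, and the methods describe controls of these experiments as carrying capsules with oil alone. Each group gave 1 library of single cells, made after collagenase treatment from the combined tissue of 3 rats. With 1 library per group, the spread between rats cannot be measured, and the groups were not compared by any test. An effect of EB and a difference between the 2 pools cannot be told apart in any value below.

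Estrogens act on neurons mainly through nuclear receptors that bind DNA at estrogen response elements and change transcription of nearby genes. *S100g* encodes calbindin-D9k, a small calcium-binding protein known from intestine, where vitamin D controls it, and from rat uterus, where estrogen controls it. *Grp* encodes gastrin-releasing peptide, a neuropeptide, and *Rxfp1* the receptor for relaxin. *Apoc3* encodes an apolipoprotein best known from liver, and *Mepe* a matrix phosphoprotein best known from bone and teeth. *Shisa3* encodes a protein that holds back the maturation of Wnt and FGF receptors, and *Inmt* an enzyme that methylates tryptamine and related amines.

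Each captured RNA molecule carried a short tag, the unique molecular identifier (UMI), so that 1 UMI stands for 1 molecule. After removal of barcodes with fewer than 200 detected genes, 4296 Control and 4379 SC300 cells remained, with 51382276 and 56390355 UMIs in all. The median cell held 7986 and 8182 UMIs. The median mitochondrial share was 11.4% and 12.4%, and 70 and 73 barcodes were called doublets and kept. The libraries had 9 barcodes in common. Levels are given as CPM, the UMIs of a gene per 1000000 UMIs of the cells concerned. A log2 ratio is the log2 of the SC300 value divided by the Control value. Ranges in parentheses are exact 95% intervals (Poisson for levels, Clopper-Pearson for shares of cells, conditional binomial for ratios), and they cover counting error only. A count of 0 was replaced by 3 UMIs, and the ratio is then written as at least that value. This bound is set by the 3 UMIs, and the 95% interval can begin below it. Where a share was 0, the share it allows is given as 3 counts of the total.

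Cells were placed in a cell type where at least 3 of 6 marker genes had a UMI and no other type had as many. This gate held 390 Control and 393 SC300 neurons, 1287 and 1444 astrocytes, 281 and 191 ependymal cells, 369 and 473 mature oligodendrocytes, 521 and 507 microglia, 426 and 389 endothelial cells and 12 and 33 fibroblasts. The median neuron had 5 of the 6 neuronal markers in both libraries. No barcode met the gate for tanycytes, and ependymal cells carried a median of 3 astrocyte markers. No barcode met the gates for pituitary or choroid plexus cells. The pituitary hormone genes *Cga*, *Tshb*, *Prl* and *Gh1* had between 0 and 5 UMIs in a whole library, and *Pitx1* had 1 and 0.

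Promoter sequences were available for 5 of the genes, *Fam25a*, *Mepe*, *Grp*, *Shisa3* and *Inmt*, from RefSeq (build GRCr8), each covering 250 bases before to 50 bases after the gene's start. *S100g*, *Apoc3* and *Rxfp1* had no entry. These windows were searched for GGTCA on either strand (TGACC on the printed strand), the arm from which an estrogen response element is built, for the full element (GGTCA, 3 bases of any kind, TGACC), and for TATAAA on the printed strand. The windows of *Mepe*, *Grp* and *Shisa3* held 1 GGTCA or TGACC each, that of *Inmt* held 2 and that of *Fam25a* held 0. Of all 33469 RefSeq promoter windows, 40.5% held at least 1 and 11.1% at least 2. The full element was in 0 of these 5 windows and in 9 of all windows. TATAAA was in the windows of *Fam25a*, *Grp* and *Inmt*, and in 8.80% of all windows.

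The windows of *Fam25a* (chr16:9690679-9690978, minus strand) and *Inmt* (chr4:85652706-85653005, minus strand) are shown because they hold the fewest and the most of these letters. Most SC300 UMIs of *Fam25a* were in neurons, and most of those of *Inmt* were in a single fibroblast. Both are written 5′ to 3′ on the gene's strand, with TATAAA and TGACC in capitals.
Fam25a: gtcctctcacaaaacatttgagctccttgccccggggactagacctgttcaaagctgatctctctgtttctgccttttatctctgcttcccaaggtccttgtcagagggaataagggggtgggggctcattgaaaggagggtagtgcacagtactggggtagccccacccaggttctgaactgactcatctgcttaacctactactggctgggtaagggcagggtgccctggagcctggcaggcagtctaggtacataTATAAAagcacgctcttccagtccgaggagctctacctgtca
Inmt: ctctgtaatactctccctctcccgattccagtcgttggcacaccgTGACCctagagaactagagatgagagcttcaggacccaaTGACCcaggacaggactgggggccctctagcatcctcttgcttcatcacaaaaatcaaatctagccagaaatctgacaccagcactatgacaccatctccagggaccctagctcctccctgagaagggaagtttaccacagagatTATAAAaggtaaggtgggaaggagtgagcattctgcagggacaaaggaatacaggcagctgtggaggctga
In *Fam25a* TATAAA began 8 bases after the start, whereas in *Inmt* it began 21 bases before it, at position -21. The matches are a description of letters and not of binding.

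Over all cells, each of the 8 genes was higher in SC300 by more than 2-fold, which is what selected them. For comparison, 1.60% of the 15426 genes with at least 20 UMIs in both libraries together were over 2-fold higher. *S100g* (ENSRNOG00000004222) had 104 UMIs in 40 Control cells and 3198 UMIs in 169 SC300 cells. Its level was 2.02 CPM (1.65 to 2.45) and 56.7 CPM (54.8 to 58.7), a log2 ratio of 4.81 (4.53 to 5.10). Among the 8 genes it was the one with the most UMIs and the most cells in both libraries.

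The other genes were sparse in Control, with at most 28 UMIs. *Grp* (ENSRNOG00000016999) had 15 UMIs in 7 Control cells and 242 UMIs in 23 SC300 cells (log2 ratio 3.88, 3.13 to 4.74). *Rxfp1* (ENSRNOG00000024120) had 14 UMIs in 8 cells and 133 UMIs in 53 cells (log2 ratio 3.11, 2.32 to 4.02). *Apoc3* (ENSRNOG00000047503) had 28 UMIs in 26 cells and 107 UMIs in 57 cells (log2 ratio 1.80, 1.19 to 2.46), the smallest ratio of the 8. With every cell weighted alike its log2 ratio was 0.89, under 2-fold. With every cell thinned to 2000 UMIs it was -0.51 (-2.31 to 1.21) on 8 and 6 UMIs, an interval that included 0. This is 1 random draw. Separate draws by cell type at that depth gave 0 and 6 *Apoc3* UMIs in neurons, 1 and 3 in astrocytes and 1 and 0 in endothelial cells. *Fam25a* and *Inmt* were close to 0 in Control, so that their ratios have wide intervals. *Fam25a* (ENSRNOG00000055025) had 2 UMIs in 2 cells and 79 UMIs in 15 cells (log2 ratio 5.17, 3.27 to 8.24). *Inmt* (ENSRNOG00000011250) had 4 UMIs in 4 cells and 99 UMIs in 9 cells (log2 ratio 4.50, 3.09 to 6.40). *Mepe* (ENSRNOG00000002154) had 14 UMIs in 13 cells and 71 UMIs in 21 cells (log2 ratio 2.21, 1.37 to 3.15). *Shisa3* (ENSRNOG00000025670) was absent from the counts of Control, where 0 of 4296 cells allows a share of up to 0.0698%. It had 80 UMIs in 10 SC300 cells, at least 24.3-fold higher in CPM.

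**Figure D1:**
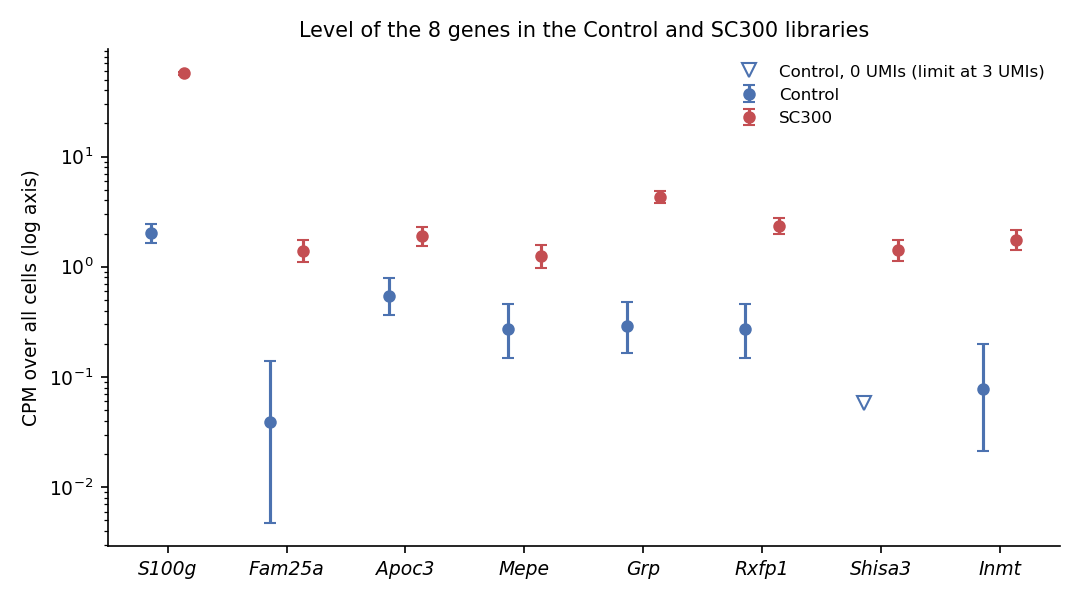
Level of each gene over all cells in CPM (log axis) in the Control (blue) and SC300 (red) libraries, 1 library each, with exact 95% Poisson intervals. *Shisa3* in Control had 0 UMIs and is drawn as an open triangle at the level of 3 UMIs, 0.0584 CPM. The SC300 point lies above the Control point for all 8 genes, and *S100g* is the highest in both libraries.

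The libraries differed less in the number of cells with *S100g* than in its UMIs. The share of cells with an *S100g* UMI was 0.931% (0.666 to 1.27) in Control and 3.86% (3.31 to 4.47) in SC300, a log2 ratio of shares of 2.05 (1.55 to 2.59) against 4.81 for the level. For *Mepe* the shares were 0.303% and 0.480%, a log2 ratio of 0.66 whose interval (-0.40 to 1.78) included 0. For *Inmt* they were 0.0931% and 0.206%, a log2 ratio of 1.14 (-0.70 to 3.29). For these 2 genes the counting interval of the ratio of shares thus included 0.

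The genes fell apart by how many SC300 cells held their UMIs. The 3 leading cells held 28.4% of the *S100g* UMIs, 25.6% of the *Rxfp1* UMIs and 15.9% of the *Apoc3* UMIs, which were spread over many cells. They held 58.2% for *Fam25a* and 74.6% for *Mepe*. They held 86.0% for *Grp*, 87.9% for *Inmt* and 90% for *Shisa3*. A single cell carried 168 of the 242 *Grp* UMIs, 81 of the 99 *Inmt* UMIs, 42 of the 80 *Shisa3* UMIs and 39 of the 71 *Mepe* UMIs. Without the 3 leading cells of each gene in each library, the log2 ratio was 5.01 (4.65 to 5.39) for *S100g*, 1.84 (1.16 to 2.56) for *Apoc3* and 3.91 (2.74 to 5.39) for *Rxfp1*. It was 2.95 (1.47 to 4.91) for *Grp* and 3.45 (0.70 to 8.87) for *Inmt*. It was at least 3.33 (interval from 2.95) for *Fam25a* and at least 1.28 (interval from 0.64) for *Shisa3*, which had 8 SC300 UMIs left. For *Mepe* it was 0.72 (-0.48 to 1.99), the 1 interval of the 8 that included 0.

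**Figure D2:**
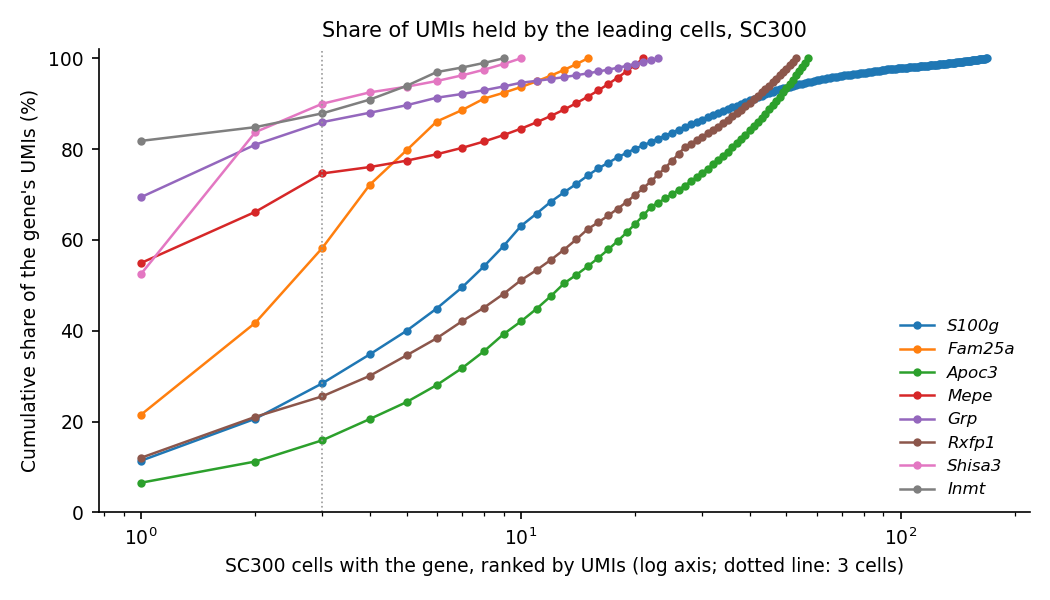
Cumulative share (%) of each gene's SC300 UMIs against the number of cells, ranked from the cell with the most UMIs (log axis). The dotted line marks 3 cells, at which *Shisa3*, *Inmt* and *Grp* reach 90%, 87.9% and 86.0% and *Apoc3* reaches 15.9%.

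By cell type, *S100g* was found mostly in neurons. Neurons held 63 of the 104 Control UMIs (60.6%) and 2765 of the 3198 SC300 UMIs (86.5%). The level in neurons was 5.72 CPM (4.40 to 7.32) in Control and 240.2 CPM (231 to 249) in SC300, a log2 ratio of 5.39 (5.03 to 5.78). Of all neurons, 22 of 390 (5.64%, 3.57 to 8.42) had a UMI in Control and 127 of 393 (32.3%, 27.7 to 37.2) in SC300. In astrocytes 2 of 1287 (0.155%) and 14 of 1444 (0.970%) had a UMI, each of them 1 UMI, a log2 ratio of level of 2.67 (0.55 to 5.85). The part of free RNA in the droplets in these astrocyte counts was not tested. The median astrocyte had 6362 and 6531 UMIs in all, and the median neuron 26824.5 and 25474. When every cell was thinned to 10000 UMIs, with 62 and 79 shallower neurons and 957 and 1136 astrocytes left out, the shares were 3.66% and 26.8% in neurons. In astrocytes they were then 0 of 330, which allows a share of up to 0.909%, and 0.325%.

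The height of the *S100g* count per neuron also differed. At least 10 UMIs were found in 2 Control neurons and 42 SC300 neurons. At least 50 UMIs were found in 0 of 390 Control neurons, which allows a share of up to 0.769%, and in 15 of 393 SC300 neurons (3.82%, 2.15 to 6.22). The highest Control neuron had 10 UMIs, and the highest SC300 neuron had 296. Of the 127 SC300 neurons with a UMI, 42 thus held at least as many UMIs as any Control neuron.

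In Control the order of cell types by *S100g* level began with ependymal cells at 6.55 CPM (4.51 to 9.19), followed by neurons, and their intervals overlapped. Ependymal cells, which line the ventricle, had 33 UMIs in 10 of 281 cells in Control and 17 UMIs in 5 of 191 cells in SC300. Their log2 ratio was -0.49 (-1.42 to 0.40), an interval of counting error that included 0. A single cell held 19 of the 33 Control UMIs. In SC300 the order began with neurons, and mature oligodendrocytes came next at 33.3 CPM. The oligodendrocyte value rests on 1 barcode with 364 of the 369 UMIs. This barcode held 165772 UMIs in all, had all 6 oligodendrocyte markers and 5 of the 6 neuronal markers, and was not called a doublet. The other 5 mature oligodendrocytes with *S100g* had 1 UMI each. Mural cells at 7.72 CPM (0.934 to 27.9) and ependymal cells at 4.67 CPM (2.72 to 7.47) followed, with overlapping intervals. Microglia had 1 and 2 UMIs, and endothelial cells 0 and 3.

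**Figure D3:**
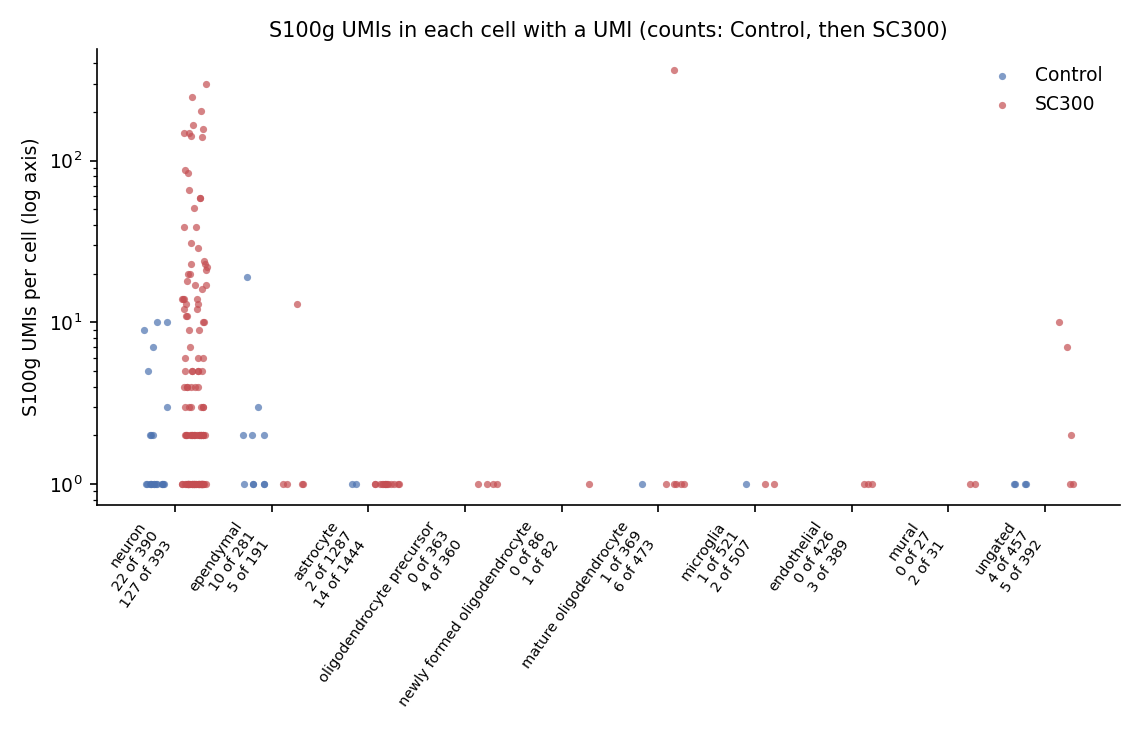
*S100g* UMIs in every cell with at least 1 UMI (log axis), by cell type gate, Control in blue and SC300 in red, where each point is 1 cell and is shifted sideways for display. The numbers under each type give cells with a UMI of all cells, Control above SC300, and counts of 10 or more are found mostly in SC300 neurons.

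Within neurons, 6 of the 8 genes had at least 20 UMIs in both libraries together, and all 6 were over 2-fold higher in SC300. Of 12108 genes with that number of neuronal UMIs, 1.40% were. Neuronal UMIs were most of the SC300 UMIs by which these 6 genes were chosen, so their count describes that choice. Neurons held 94.9% of the *Fam25a* UMIs, 96.3% of the *Grp* UMIs, 81.2% of the *Rxfp1* UMIs, 78.5% of the *Apoc3* UMIs and 76.1% of the *Mepe* UMIs of the SC300 library. *Shisa3* and *Inmt* were not among the 6.

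*Apoc3* differed between the libraries mainly in neurons. Astrocytes had 12 UMIs in Control and 10 in SC300, ependymal cells had 8 and 3, and endothelial cells had 4 and 4. Neurons had 3 UMIs in 3 of 390 cells in Control and 84 UMIs in 39 of 393 cells in SC300 (log2 ratio 4.74, 3.15 to 7.05). Over all cells but neurons the counts were 25 and 23 UMIs, a log2 ratio of -0.27 (-1.16 to 0.60). The counting interval of *Apoc3* outside neurons thus included 0. No SC300 neuron had more than 7 *Apoc3* UMIs.

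*Rxfp1* was also mostly neuronal, with 10 UMIs in 6 neurons in Control and 108 UMIs in 46 neurons in SC300 (log2 ratio 3.37, 2.43 to 4.47). The barcode with both oligodendrocyte and neuronal markers had 16 further UMIs. *Fam25a* had 1 UMI in 1 Control neuron and 75 UMIs in 11 SC300 neurons (log2 ratio 6.16, 3.64 to 11.5). The Control neuron was called a doublet. *Grp*, the peptide gene, had 14 UMIs in 6 neurons and 233 UMIs in 15 neurons (log2 ratio 3.99, 3.22 to 4.89), and 174 of the 233 were in 5 neurons that were rich in *Sst*, the somatostatin gene. The leading *Grp* neuron had 124 *Sst* UMIs beside its 168 *Grp* UMIs, so that 168 of those 174 UMIs rest on 1 cell. The next 2 neurons by *Grp*, with 28 and 12 UMIs, had 0 *Sst* UMIs.

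*Mepe* had 3 UMIs in 3 Control neurons and 54 UMIs in 4 SC300 neurons. Of these 54 UMIs, 53 were in 3 neurons, with 39, 8 and 6 UMIs. All 3 were rich in *Sst* (1323, 1538 and 1293 UMIs) and in *Cartpt* (252, 145 and 114 UMIs), and all had *Slc17a6*, the transporter gene of glutamatergic neurons. Mature oligodendrocytes held most of the remaining *Mepe*, with 7 UMIs in 7 cells in Control and 12 UMIs in 12 cells in SC300 (log2 ratio 0.30, -1.16 to 1.88).

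Most SC300 UMIs of *Shisa3* and *Inmt* were in fibroblasts. Most of the 10 and 9 SC300 cells with these genes were not gated as fibroblasts, and none of those held more than 3 UMIs of either gene. *Shisa3* had 0 UMIs in the 12 Control fibroblasts and 72 UMIs in 3 of the 33 SC300 fibroblasts. The 3 cells had 42, 25 and 5 UMIs and 4, 4 and 5 of the 6 fibroblast markers. The first had 160 UMIs of *Mgp*, a matrix protein gene, and 67 of *Col1a1*, but 0 of the markers *Dcn* and *Lum*. *Inmt* had 1 UMI in a Control fibroblast and 84 UMIs in 2 SC300 fibroblasts. Of these 84 UMIs, 81 were in a cell with 5 of the 6 markers, with 100 UMIs of *Dcn* and 0 of *Mgp*. The fibroblasts with *Shisa3* were different cells, with 0 *Inmt* UMIs. With 12 Control fibroblasts, 0 cells with *Shisa3* allows a share of up to 25.0%, so the share of 9.09% in SC300 is within what the Control count allows. The SC300 library held more fibroblasts (0.754% of cells against 0.279%), and the part of this in the ratios of both genes was not tested. Cells over 20% mitochondrial UMIs included the cells with 42 and 5 *Shisa3* UMIs (20.6% and 22.4%). Without such cells the log2 ratio of *Shisa3* was at least 3.31 (interval from 2.92) in place of at least 4.60 (interval from 4.27).

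The neurons with *S100g* were examined by transmitter and peptide genes, a split chosen after the data were seen. Neurons with *Slc32a1* and without *Slc17a6* were taken as GABAergic, and the reverse as glutamatergic. In GABAergic neurons *S100g* was found in 15 of 213 (7.04%, 3.99 to 11.3) in Control and 87 of 202 (43.1%, 36.1 to 50.2) in SC300. In glutamatergic neurons it was found in 7 of 134 (5.22%, 2.13 to 10.5) and 35 of 135 (25.9%, 18.8 to 34.2). Both kinds therefore had higher shares in SC300. Their log2 ratios of level were 5.28 (4.84 to 5.74) and 5.63 (4.98 to 6.36), with intervals that overlapped.

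Neurons were called rich in a peptide gene where they had at least 20 of its UMIs. These groups overlap, and many are small. *Pomc*, the precursor gene of melanocortin peptides, marked 6 Control and 8 SC300 neurons. All 8 SC300 neurons had *S100g*, with 930 UMIs (3170 CPM), the highest level of any group with at least 5 neurons in each library. The 3 leading neurons held 749 of these UMIs (80.5%), and the median of the 8 was 59 UMIs. In Control 1 of the 6 neurons had *S100g*, with 1 UMI. The intervals of the shares overlapped (0.421 to 64.1% in Control, 63.1 to 100% in SC300), and the log2 ratio of shares was 2.58 (-0.31 to 8.06). The median *Pomc*-rich neuron had 40671 UMIs in all in Control and 32127 in SC300. With at least 10 *Pomc* UMIs, *S100g* was in 9 of 10 SC300 neurons and 1 of 7 Control neurons, and 2 neurons of each library had between 10 and 39 *Pomc* UMIs. Outside the *Pomc*-rich neurons, *S100g* still had 62 UMIs in 21 of 384 neurons in Control and 1835 UMIs in 119 of 385 in SC300 (log2 ratio 4.83, 4.47 to 5.22).

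*S100g* was also frequent in SC300 neurons rich in *Ghrh*, the growth hormone-releasing hormone gene, with 12 of 14 (85.7%, 57.2 to 98.2) against 0 of 5 in Control, which allows a share of up to 60%. In neurons rich in *Kiss1*, the kisspeptin gene, it was found in 5 of 6 against 2 of 7, with intervals that overlapped. In neurons rich in *Gal*, the galanin gene, it was found in 19 of 39 (48.7%, 32.4 to 65.2) against 0 of 34, which allows a share of up to 8.82%. In *Sst*-rich neurons it was found in 24 of 53 (45.3%) against 3 of 42 (7.14%). *Agrp*-rich neurons, which drive feeding, had it in 0 of 16 in both libraries, and each 0 allows a share of up to 18.8%. *Avp*-rich neurons had it in 1 of 13 against 0 of 18, and *Oxt*-rich neurons in 2 of 12 against 0 of 3. These groups are small, and no difference between the libraries is read from them. The limit of 18.8% for the *Agrp*-rich neurons is below the interval of the *Pomc*-rich group in SC300 (63.1 to 100%). The groups themselves differed in size between the libraries for some peptides, such as 5 and 14 *Ghrh*-rich and 3 and 12 *Oxt*-rich neurons, and the part of this in the levels over all neurons was not tested.

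The other spread genes were looked at in the same groups. *Rxfp1* was found in 0 of 213 GABAergic neurons in Control, which allows a share of up to 1.41%, and 25 of 202 in SC300, and in 5 of 134 and 16 of 135 glutamatergic neurons. *Apoc3* was found in 2 and 24 GABAergic and in 1 and 13 glutamatergic neurons. Both genes were thus found in both kinds of neuron in SC300. Of the 14 *Ghrh*-rich SC300 neurons, 7 had *Apoc3* and 10 had *Rxfp1*. No comparison with the 5 *Ghrh*-rich Control neurons is made here. Of the 8 *Pomc*-rich SC300 neurons, 4 had *Apoc3*, 4 had *Rxfp1* and 4 had *Fam25a*, each a share of 50%. In Control 0 of the 6 had any of these, which allows a share of up to 50% for each. The SC300 shares are thus within what the Control count allows.

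**Figure D4:**
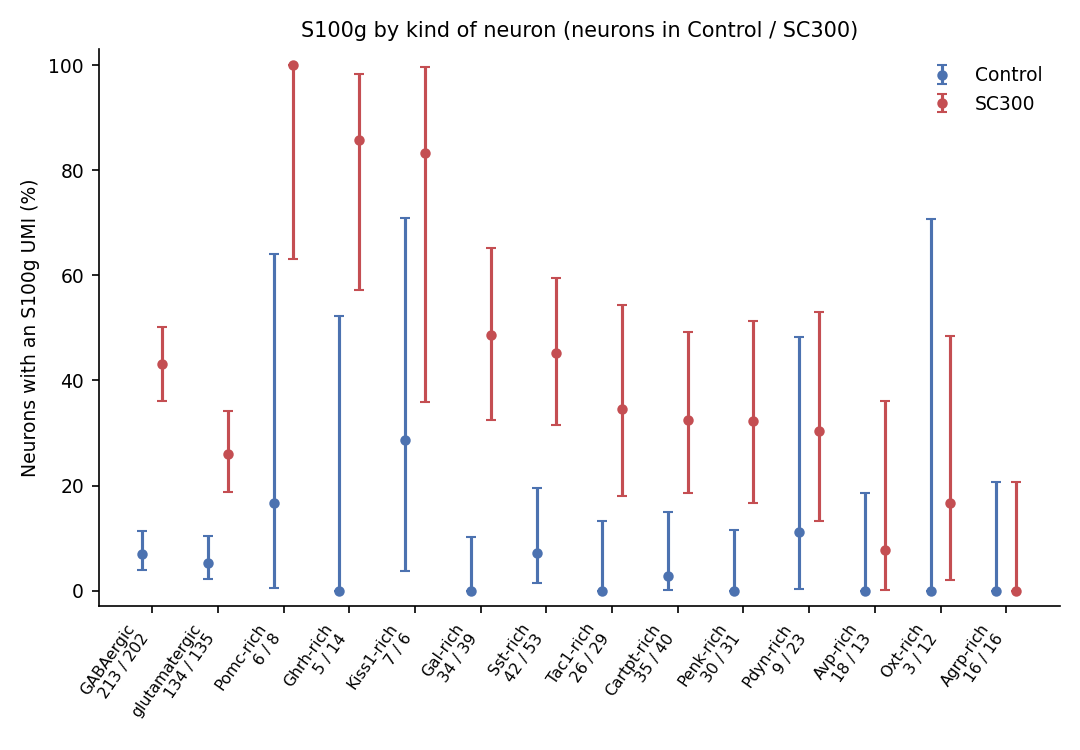
Share of neurons with an *S100g* UMI (%) by kind of neuron, Control in blue and SC300 in red, with exact 95% Clopper-Pearson intervals and the number of neurons in Control and SC300 under each kind. In SC300 the shares run from 0 of 16 *Agrp*-rich neurons to all 8 *Pomc*-rich neurons, and the peptide groups overlap with each other and with the transmitter groups.

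Several of the other genes were found in the same SC300 neurons as *S100g*. *Apoc3* was detected in 35 of the 127 neurons with *S100g* (27.6%, 20.01 to 36.2) and in 4 of the 266 without (1.504%, 0.411 to 3.81). *Rxfp1* was detected in 28 of 127 (22.0%, 15.2 to 30.3) and 18 of 266 (6.77%, 4.06 to 10.5). *Fam25a* was detected in 10 of 127 (7.87%, 3.84 to 14.0) and 1 of 266 (0.376%). The intervals of each pair did not overlap. For *Grp* the shares were 5.51% (2.24 to 11.03) and 3.01% (1.31 to 5.84), with intervals that overlapped. *Mepe* was found in 0 of 127 neurons with *S100g*, which allows a share of up to 2.36%, and in 4 of the 266 without. The neurons with *S100g* were deeper, with a median of 29112 UMIs against 23683.5, and the part of depth in these shares was not tested. *Oxt*, the oxytocin gene, was also detected more widely in the neurons with *S100g*, in 70.1% (61.3 to 77.9) against 53.4% (47.2 to 59.5), although its level was 63.3 CPM in them and 29434 CPM in the others. A higher share of cells with a UMI therefore need not go with a higher level.

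The neuron with the most *S100g* (296 UMIs) also had 11 *Fam25a*, 7 *Apoc3* and 6 *Rxfp1* UMIs, together with 614 *Pomc* UMIs. It was the leading cell for *Apoc3* and among the 5 leading cells for *Fam25a* and *Rxfp1*. The cell with the most *Fam25a* (17 UMIs) had 84 *S100g* UMIs and 0 *Pomc* UMIs. In Control, 22 neurons had *S100g*, and 2 of them had *Apoc3* while 0 had *Rxfp1* or *Fam25a*.

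**Figure D5:**
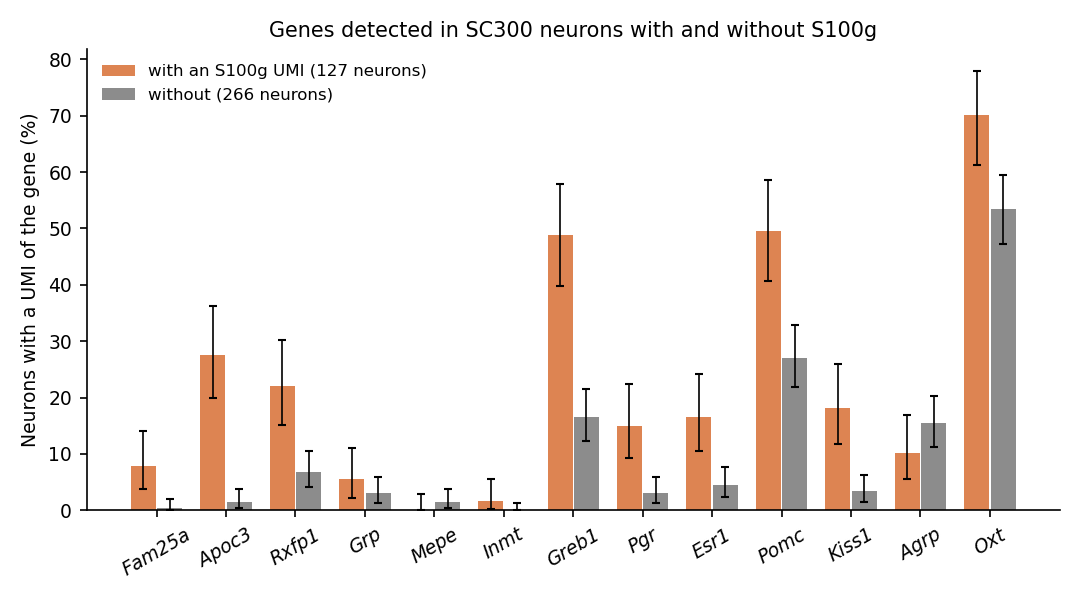
Share of SC300 neurons (%) in which each gene was detected, among the 127 neurons with an *S100g* UMI (orange) and the 266 without (grey), with exact 95% Clopper-Pearson intervals. The shares of *Apoc3*, *Rxfp1*, *Fam25a*, *Greb1*, *Pgr*, *Esr1*, *Pomc*, *Kiss1* and *Oxt* are higher in the neurons with *S100g* beyond their intervals. *Agrp*, *Grp*, *Mepe* and *Inmt* have overlapping intervals. The level of *Oxt* was lower in the neurons with *S100g* (63.3 CPM against 29434 CPM). The part of depth and of free RNA in these shares was not tested.

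Genes of the same families and pathways were described from lists, which were chosen with earlier results of these data known. Of the estrogen-responsive and estrogen receptor genes, 10 of 12 had at least 20 UMIs. In all cells 1 was over 2-fold higher and 2 were over 2-fold lower, with a median log2 ratio of 0.13. Over all genes 1.60% were higher and 1.82% lower, with a median of -0.04. *Pgr*, the progesterone receptor gene, had 12 UMIs in Control and 36 in SC300 (log2 ratio 1.45, 0.48 to 2.53). *Esr1*, the gene of estrogen receptor alpha, had 136 and 71 (-1.07, -1.51 to -0.65), and *Gper1*, a membrane receptor gene, had 17 and 7 (-1.41, -2.93 to -0.07). *Gal* had the most UMIs, 9316 and 11659 (0.19, 0.15 to 0.23).

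In neurons 8 genes of that list were measured, with 2 higher and 1 lower, where over all genes 1.40% were higher and 2.02% lower. *Greb1*, a gene known for its response to estrogen, had 39 and 216 UMIs in neurons (log2 ratio 2.40, 1.91 to 2.94). *Pgr* had 10 and 32 (1.61, 0.55 to 2.80), and *Esr1* had 100 and 50 (-1.06, -1.58 to -0.56). In SC300 *Greb1* was detected in 48.8% (39.9 to 57.8) of the neurons with *S100g* and 16.5% (12.3 to 21.6) of those without. *Pgr* was detected in 15.0% (9.25 to 22.4) and 3.01% (1.31 to 5.84), and *Esr1* in 16.5% (10.5 to 24.2) and 4.51% (2.35 to 7.75). For each of the 3 genes the intervals did not overlap, with the difference in depth given above. In Control, *Esr1* was in 9 of the 22 neurons with *S100g* (40.9%) and 36 of the 368 without (9.78%). *Greb1* was there in 6 (27.3%, 10.7 to 50.2) and 25 (6.79%, 4.44 to 9.87), also without overlap, and *Pgr* in 1 and 7.

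No measured gene of the list of other S100 and calcium-handling genes was over 2-fold higher, and 2 were over 2-fold lower. Over all genes 1.60% were higher and 1.82% lower. Of 19 genes 16 had at least 20 UMIs, with a median log2 ratio of -0.16. *S100a8* and *S100a9*, genes of neutrophils and other myeloid cells, were lower, with 106 and 14 UMIs (-3.05, -3.97 to -2.24) and 132 and 31 UMIs (-2.22, -2.84 to -1.65). Both rested on few cells, since 3 cells or fewer held 100% and 93.2% of the Control UMIs. *S100b*, an astrocyte gene, had the most UMIs, 90422 and 71523 (-0.47). In neurons *S100a4* was lower, with 30 and 5 UMIs.

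The relaxin list holds peptides and receptors of the family of *Rxfp1*. Of the relaxin list, 3 of 6 genes were measured and 1 was over 2-fold higher in all cells, where over all genes 1.60% were. *Rln1*, which encodes relaxin, had 64 UMIs in 48 Control cells and 365 UMIs in 80 SC300 cells (log2 ratio 2.38, 1.99 to 2.78), and 3 cells held 41.1% of the SC300 UMIs. In neurons it had 53 and 354 UMIs (2.67, 2.26 to 3.12). Among bombesin-like peptides and receptors, 2 of 4 genes were measured and 0 were over 2-fold apart in all cells. *Nmb*, the neuromedin B gene, had the most UMIs, 86 and 152 (0.69, 0.30 to 1.09), and 45 and 110 in neurons (1.22, 0.71 to 1.76).

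Among apolipoprotein genes 9 of 13 were measured, with 0 higher and 1 lower and a median log2 ratio of 0.32. Over all genes 1.60% were higher and 1.82% lower. *Apoc2*, an activator of lipoprotein lipase, had 45 and 12 UMIs (-2.04, -3.10 to -1.10). *Apoe* had the most UMIs, 495021 and 550372 (0.02). *Apoc1*, which the files list under 2 identifiers, had ratios of 0.95 and 0.97, just under 2-fold. In neurons the *Apoc1* identifier that was measured had 17 and 37 UMIs (1.06, 0.19 to 1.98). It was the only apolipoprotein gene of the list over 2-fold higher there, where over all genes 1.40% were. The matrix phosphoprotein genes of the family of *Mepe* (2 of 4 measured), the Shisa genes (7 of 9) and the small-molecule methyltransferase genes (4 of 6) had 0 genes over 2-fold apart in all cells. Their members with the most UMIs were *Spp1* with 106 and 174 UMIs (0.58), *Shisa5* with 3698 and 3995 (-0.02) and *Gamt* with 16614 and 21320 (0.23). In neurons *Nnmt* was over 2-fold lower, with 15 and 5 UMIs. At a minimum of 10 UMIs in place of 20, *Dmp1* of the family of *Mepe* was over 2-fold higher, with 1 and 9 UMIs (3.04, 0.18 to 8.49). Over all genes 2.37% were higher at that minimum.

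The genes whose pattern over cell types was most like that of a member were found for *S100g*, *Apoc3* and *Rxfp1*, the only members with at least 100 UMIs of which no more than 50% were in 3 cells. Likeness was measured as Pearson's r of log2(CPM + 1) over 20 values, which were 10 cell types in 2 libraries. The values of a library share its cells and depth, and r is a description. For *S100g* they were *Slc6a5* (r = 0.860), *Rxfp1* (0.860), *Nmb* (0.780), *Nppc* (0.774) and *Rln1* (0.771). In neurons *Slc6a5*, a glycine transporter gene, was at 1.91 CPM in Control and 6.86 CPM in SC300, and *Nppc*, the gene of C-type natriuretic peptide, at 18.5 and 74.3 CPM. For *Rxfp1* they were *Slc6a5* (0.956), *Rln1* (0.939), *Ocm2* (0.904), *Ccl24* (0.901) and *Grp* (0.878). For *Apoc3* they were *Ccl24* (0.792), *Esyt3* (0.784), *Gstm6* (0.767), *Rnf207* (0.756) and *Rxfp1* (0.755). *Ccl24*, a chemokine gene, had 17 and 176 UMIs over all cells. In neurons it was at 0 and 0.0869 CPM, the level of 1 UMI. Cell types with fewer than 20 cells in a library were not among the 20 values. The r values of *Ccl24* thus rest on a neuronal level near 0 and leave out most of its UMIs. The 3 members were chosen as higher in SC300 and the values include those of SC300 neurons, so their likeness to each other is partly set by that choice. The barcode of 165772 UMIs also put SC300 mature oligodendrocytes next to neurons in the level of both *S100g* and *Rxfp1*.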

How the data were processed

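The authors demultiplexed and aligned the reads to the Ensembl transcriptome, counted UMIs and called cells with Cell Ranger (3.0.1 per the labels, while the methods name another release for demultiplexing), and deposited unnormalized counts of UMIs per gene and barcode for 1 Control and 1 SC300 library. The genome build was not given in the sources used here.

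Barcodes with at least 200 genes were kept. Doublets were called with Scrublet and kept. Cell types were gated by at least 3 of 6 markers and more markers than any other type (15 types, 84 of 90 markers found). The values of 1 marker are not reported here. UMIs were summed per gate and scaled to CPM, with exact 95% intervals that cover counting error only. No test was made, because each group is 1 library. Interval code was tested on simulated gene totals with Poisson error alone. These did not hold the gathering of a gene's UMIs in few cells.

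The members, lists and neuron groups were chosen with earlier results of these data known. Named genes were the 8 members, list genes past 2-fold with at least 20 UMIs, the list member with the most UMIs, and the 5 genes of most similar pattern per eligible member. Matrices were handled with scanpy 1.11.5 and pandas 2.3.3, and intervals computed with scipy 1.17.1 and numpy 2.4.6, in Python 3.11.15 (plots with matplotlib 3.10.9). The 12 alternative settings set out at the start covered cell filters, doublets, leading cells, scaling, thinning, gates and minimum counts.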

Additional observations from a re-analysis of the deposited data

How the results depend on the processing

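No paired analysis was possible because each group has 1 library. No test was made, so that the values show sizes and not significance, and 1 pool of 3 rats per group limits every ratio. The 8 genes were chosen by the contrast between the libraries. Counts of them with an interval above 0 are therefore a description, with no share over all genes given beside them. All 8 genes kept an interval above 0 with all deposited barcodes, at most 20% mitochondrial UMIs, no doublets, and both other scalings, and 7 did without the 3 leading cells of each gene. With every cell thinned to 2000 UMIs in 1 random draw, 5 of 8 did. In that draw *S100g* had a log2 ratio of 4.14 and a log2 ratio of shares of 3.01. *Apoc3* was at -0.51 (-2.31 to 1.21) on 8 and 6 UMIs, and separate draws by cell type did not all go that way. With every cell weighted alike, the log2 ratio of *S100g* was 3.81 and that of *Apoc3* 0.89, no interval can be given, and *Shisa3* has no value. With neurons thinned to 10000 UMIs, chosen after seeing the data as were all neuron groups, *S100g* in neurons was at 5.00. The cause of these shifts was not tested. In lists, a minimum of 50 UMIs left 0 estrogen-related genes higher and 1 lower, where over all genes 0.986% were higher and 1.11% lower. A minimum of 10 gave 1 higher gene of the matrix phosphoproteins, where over all genes 2.37% were higher. In neurons, chosen after seeing the data, the counts over 2-fold were 2 higher and 1 lower (estrogen-related) and 1 lower (S100 and calcium). They were 1 higher and 0 lower (apolipoproteins), 1 higher (bombesin-like) and 1 lower (methyltransferases). Over all genes in neurons 1.40% were higher and 2.02% lower.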

Other observations

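The Control cell with the most *S100g* UMIs (19) was gated as ependymal, with 4 ependymal markers and 0 neuronal markers, and held 224 *Pomc* UMIs. It was chosen after its values were seen. Barcodes with a UMI of *Rax*, a tanycyte gene, were taken in place of the empty tanycyte gate, and *S100g* had 4 UMIs in 2 of 20 of them in Control and 0 UMIs in 17 in SC300.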
